A study of Danio rerio with 19 samples.

Results

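Whole zebrafish larvae exposed to atorvastatin were compared directly with larvae exposed to afidopyropen at the same low concentration of 100 ng/L, with no control library in the test. The comparison used 7 of the 19 samples of the study, chosen by their labelled treatment and dose: 4 libraries of atorvastatin (AVS low, replicates 1, 2, 4 and 5) and 3 of afidopyropen (Afid low, replicates 1, 2 and 4). The other samples were exposed at 1000 ng/L to AVS (AVS high, 4) or to Afid (4), or kept in the control medium, named ERM (4). Control values are given last as orientation and enter no test here. Strain, age and whether a library is 1 larva, a pool or a tank are not given in the labels, so each p reflects variation among libraries that may be technical in part. The concentrations are equal by mass, and the comparison asks which transcripts differ between the 2 groups of larvae. The labels do not say whether the groups shared a clutch, tank or batch, so a difference may not be due to the compounds alone.

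Atorvastatin is a cholesterol-lowering drug that blocks HMG-CoA reductase, the enzyme that makes mevalonate, from which cells build sterols, coenzyme Q and the prenyl anchors of small GTPases. When sterols run short, the transcription factor Srebf2 is released from the endoplasmic reticulum and turns on the genes of sterol synthesis and of the low-density lipoprotein receptor, and its relative Srebf1 turns on fatty acid synthesis. Afidopyropen is an insecticide that overactivates channels made of the insect TRPV proteins Nanchung and Inactive in stretch-sensing neurons of the chordotonal organs. The zebrafish TRP channel genes include trpv1, trpv4 and trpv6.

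The 7 libraries held 9.91 to 16.9 M reads in genes, on average 13.5 M ± 3.37 in AVS low (SD, n = 4) and 11.5 M ± 1.11 in Afid low (SD, n = 3), with 15.5 M ± 2.28 in control (SD, n = 4). The difference in depth was within the spread between libraries (exact two-sided permutation test, p = 0.514, smallest p the design allows 0.0571). Markers of muscle, lens, photoreceptors, pancreas, liver and neurons had reads in every library, which fits the label of whole larvae. On the first principal component of the 7 libraries, which held 41.9% of the variance, AVS low replicate 1 stood apart at −82.9. AVS low replicate 2 lay at −32.3 and replicate 5 at 1.9, while AVS low replicate 4, at 28.1, lay among the Afid low libraries, which stood at 24.7 to 30.6. AVS low replicate 4 bears on many results below, and values without it are given where they change a call.

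Among lipid genes the desaturase fads2 and the elongase elovl7b were higher in every AVS low library than in any Afid low library, and 19 of 22 enzymes of sterol synthesis had estimates above 0, with a median log2 fold change of 0.22. The gene fads2 (ENSDARG00000019532; chromosome 25, 4133488 to 4148719; no source names the genome build of these coordinates) makes long polyunsaturated fatty acids. It stood at 56.7, 45.1, 45.8 and 40.6 CPM (reads scaled to a common library size) in AVS low replicates 1, 2, 4 and 5, against 21.9, 27.3 and 20.1 CPM in Afid low replicates 1, 2 and 4, with 10.8 to 29.6 CPM in the control. The groups did not overlap, and all 4 AVS low libraries lay above every control library as well. Its log2 fold change of AVS low over Afid low was 1.01 (SE 0.18), with a range of 0.91 to 1.14 when any 1 library was left out. The test across all genes, edgeR's quasi-likelihood test with Benjamini-Hochberg adjustment, gave it an adjusted p of 0.640, while DESeq2 called it with an adjusted p of 0.00634. Over the other alternatives its adjusted p in edgeR or limma-voom ran from 0.0402, without AVS low replicate 4, to 0.934.

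The adjusted p of 0.640 is also the smallest of the edgeR fit, which called 0 of 19218 genes tested (percent called 0 in either direction). At an unadjusted p under 0.05 there were 1443 genes (7.51%), of which 566 were higher (2.95%) and 877 lower (4.56%) in AVS low. The CPM of the 2 groups did not overlap in 1446 genes (7.52%), 741 of them higher (3.86%) and 705 lower (3.67%). With limma-voom 0 genes were called, with 1784 at an unadjusted p under 0.05, and with DESeq2 9 were called. The DESeq2 calls were 3 genes that were higher in AVS low (0.0121% of genes; fads2, tmeff2b and zgc:158432) and 6 that were lower (0.0243%; myhb, rp1l1b, prx, cnga3b, xirp2a and CU570894.1). No difference described here passed the edgeR threshold with all 7 libraries, and words such as higher and lower give the direction of the estimate. Over all genes tested 51.9% were higher in AVS low, with a median log2 fold change of 0.02, and each gene list is set beside that.

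**Figure D1:**
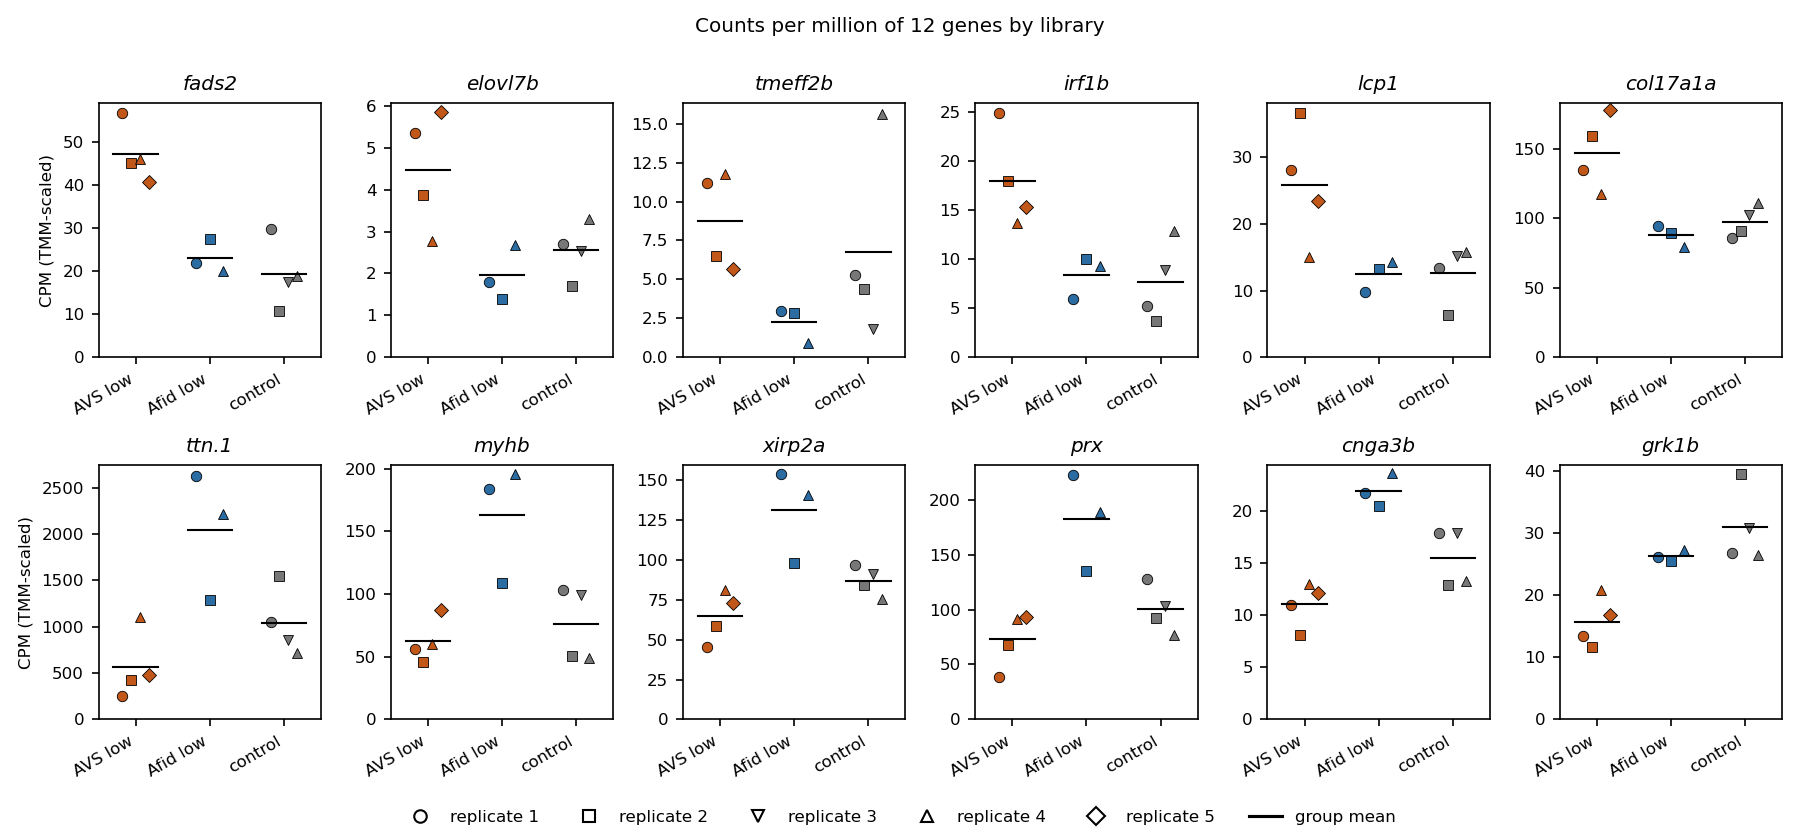
CPM (TMM-scaled, y axis, linear from 0) of 12 genes in each library of AVS low, Afid low and control (x axis). Marker shapes give the replicate number and lines the group mean. In the upper 6 genes every AVS low library lies above every Afid low library, as for fads2 with at least 40.6 against at most 27.3, and in the lower 6 every AVS low library lies below.

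Of the 22 tested members of the fatty acid synthesis list, 17 were higher and 5 lower in AVS low, with a median log2 fold change of 0.10. That median was 0.01 without AVS low replicate 5, 0.04 without AVS low replicate 2, 0.17 without AVS low replicate 4 and 0.014 with a replicate block. Without overlap between groups were 2 higher members, fads2 and elovl7b, and 1 lower member (all genes 3.86% and 3.67%). The elongase elovl7b stood at 5.35, 3.88, 2.78 and 5.85 CPM in AVS low against 1.81, 1.38 and 2.68 CPM in Afid low, a log2 fold change of 1.16 (SE 0.38). Its groups did not overlap, though AVS low replicate 4 and Afid low replicate 4 nearly met. The elongases elovl5, elovl2 and elovl6l had log2 fold changes of 0.42, 0.34 and 0.28, and mid1ip1a, an activator of acetyl-CoA carboxylase, 0.52. Fatty acid synthase, fasn, was at 0.16 (SE 0.20) and the transcription factor srebf1 at 0.04 (SE 0.20), both within the spread, and elovl6 was at −0.76 and the delta-9 desaturase scdb at −0.30.

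Of 22 tested enzymes of sterol synthesis 19 were higher and 3 lower in AVS low, with a median log2 fold change of 0.22. The drug's target is encoded by hmgcra and hmgcrb. The gene hmgcra (chromosome 5, 50972485 to 50992775) was near the limit of detection, with 19, 25, 8 and 15 reads in AVS low against 1, 5 and 10 reads in Afid low. That is 1.27, 1.56, 0.654 and 1.33 CPM in AVS low against 0.0951, 0.384 and 0.707 CPM in Afid low, with 0.0746 to 0.918 CPM in the control. The groups overlap through AVS low replicate 4, the log2 fold change was 1.52 (SE 0.63), and these few reads leave a 95% interval of 0.16 to 2.88. The much more abundant hmgcrb was at 52.2, 53.8, 40.9 and 45.4 CPM in AVS low against 38.0, 42.4 and 43.8 CPM in Afid low, a log2 fold change of 0.20 (SE 0.16). The groups overlap, and the 95% interval in the plot of lipid genes spans 0.

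Further along the pathway, the squalene synthase fdft1 had a log2 fold change of 0.54 (SE 0.32), lanosterol synthase, lss, of 0.96 (SE 0.50) and the demethylase cyp51 of 0.51 (SE 0.25). In each of these 3 genes AVS low replicate 4 had the lowest value of its group, 7.76 CPM for fdft1 against 15.6 to 21.9 CPM in the other 3 AVS low libraries. HMG-CoA synthase, hmgcs1, was at 0.31 (SE 0.22), the isomerase idi1 at 0.29 (SE 0.19), squalene epoxidase, sqlea, at 0.36 (SE 0.41) and dhcr7, the last step to cholesterol, at 0.29 (SE 0.21). The lower members were msmo1 at −0.31, sc5d at −0.22 and the prenyl synthase fdps at −0.19. In libraries, the score of this list (log2 CPM centred gene by gene on the mean of the 15 libraries with counts, then the median of all tested genes of the list) was 0.20, 0.19, −0.15 and 0.14 in AVS low, against −0.10, −0.14 and −0.09 in Afid low, with −0.26 to 0.00 in the control. So 3 of the 4 AVS low libraries lay above all Afid low and control libraries, and AVS low replicate 4 below all Afid low libraries. Without that library the median of the list was 0.31, and without AVS low replicate 1 it was 0.16. At an unadjusted p under 0.05 in edgeR were 1 higher member, hmgcra, and 0 lower members (all genes 2.95% and 4.56%). In either direction 0 members were without overlap (all genes 3.86% and 3.67%).

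**Figure D2:**
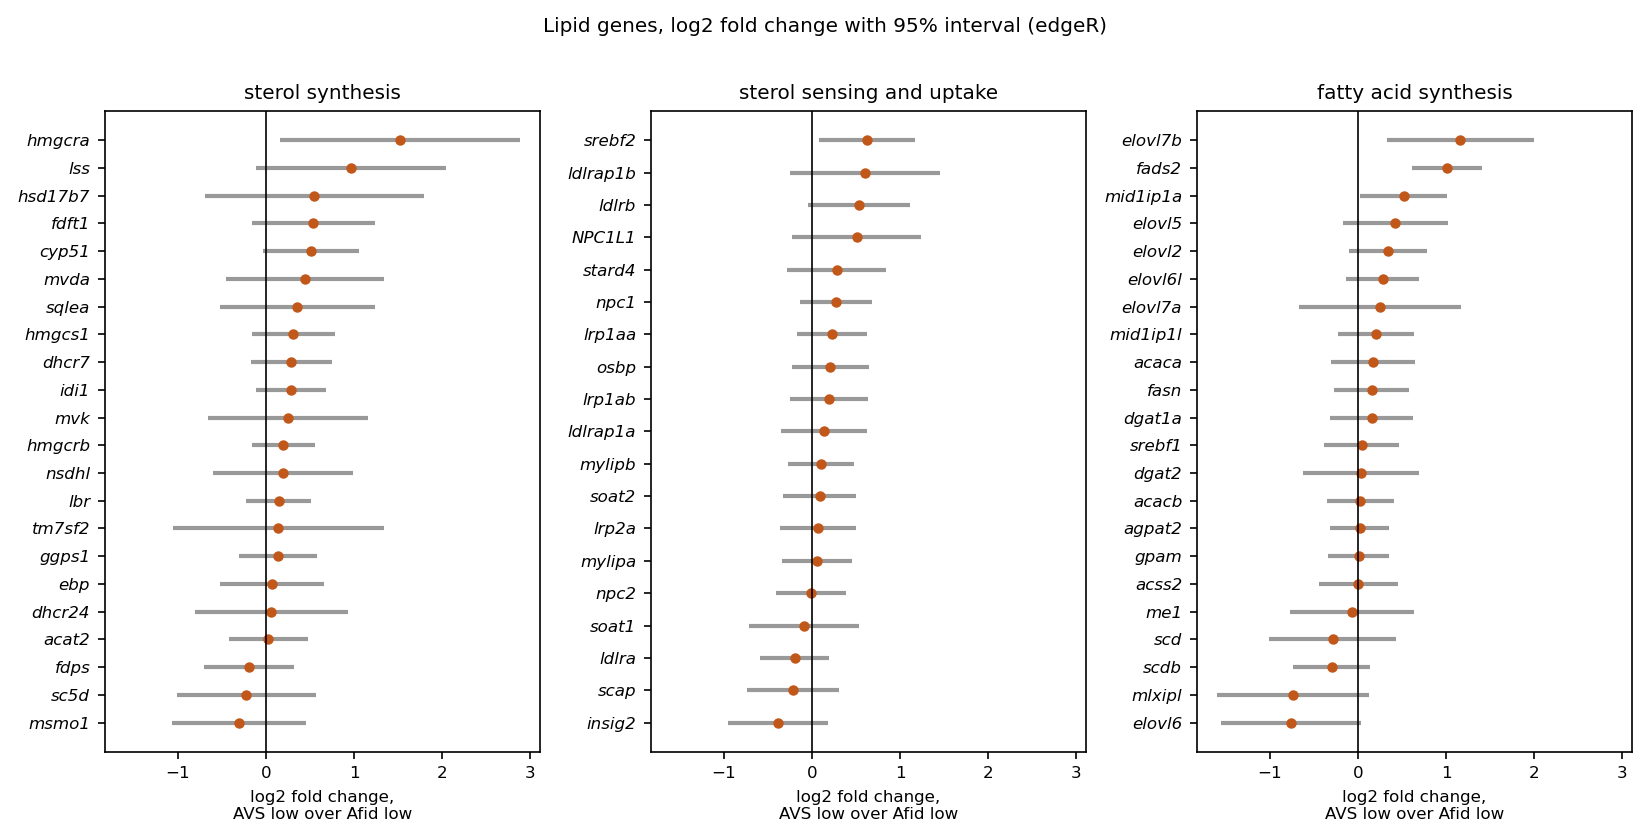
Log2 fold change of AVS low over Afid low (x axis) for the tested members of 3 lipid gene lists, apart from 1 gene not reported here (y axis, ordered by value), from edgeR. Points are estimates and lines 95% intervals. Most points lie right of 0, but only a few intervals leave 0 aside, among them fads2 at 1.01 and srebf2 at 0.63.

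Genes that sense and import sterols were also higher in AVS low more often than lower, 15 of 20 tested members. Their median log2 fold change was 0.12, with 0.09 without Afid low replicate 1 and 0.20 without either Afid low replicate 2 or 4. The gene srebf2 (chromosome 3, 1107102 to 1130892), the sterol-response factor itself, stood at 144, 118, 65.0 and 94.4 CPM in AVS low against 50.2, 74.6 and 77.5 CPM in Afid low, with 63.2 to 89.6 CPM in the control. The groups overlap only through AVS low replicate 4, and the log2 fold change was 0.63 (SE 0.25). The lipoprotein receptor gene ldlrb was at 76.6, 72.7, 37.6 and 47.5 CPM in AVS low against 27, 43.5 and 49.3 CPM in Afid low, a log2 fold change of 0.54 (SE 0.27). Its paralog ldlra did not share this direction, with −0.19 (SE 0.18). The intestinal sterol importer NPC1L1 was at 0.51, while insig2, which holds Srebf2 back, was at −0.38.

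Sterol export showed the clearest of these single genes in abcg8, a subunit of the transporter that returns sterols to bile and gut. It stood at 5.62, 9.13, 7.11 and 7.62 CPM in AVS low against 4.66, 3.23 and 3.53 CPM in Afid low, without overlap, a log2 fold change of 0.94 (SE 0.28). Its partner abcg5 was at 0.73, the bile acid enzyme cyp7a1 at 0.54 and the ileal bile acid carrier fabp6 at 0.47 (SE 0.21). The sterol efflux and bile acid list as a whole had 13 of 19 members higher and a median of 0.14, which was 0.07 without Afid low replicate 1, 0.23 without AVS low replicate 4 and 0.29 without Afid low replicate 2. Of 23 genes for coenzyme Q and prenylation, products of the same mevalonate pathway, 15 were higher with a median of 0.16, which was 0.02 without AVS low replicate 1, 0.09 and 0.08 without Afid low replicates 2 and 4, and 0.24 with a replicate block. The small GTPases rac1a and cdc42, which carry prenyl anchors, did not overlap between groups, at log2 fold changes of 0.53 (SE 0.19) and 0.39 (SE 0.15). They were the 2 higher members of that list without overlap, and 1 member was lower without overlap (all genes 3.86% and 3.67%).

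No TRP channel gene had a difference that passed a test. Of 29 tested, 18 were higher and 11 lower, with a median of 0.11. At an unadjusted p under 0.05 in edgeR were 0 members (all genes 2.95% higher and 4.56% lower). In so short a list, 0 is not far from those shares. The median had no stable sign, at −0.0035 without AVS low replicate 5 and −0.039 with a replicate block, and was 0.0075 without AVS low replicate 2. The gene trpv1 stood at 3.68, 6.56, 3.84 and 7.71 CPM in AVS low against 4.76, 4.38 and 4.73 CPM in Afid low, a log2 fold change of 0.22 (95% interval −0.48 to 0.92). The Afid low libraries all lay inside the range of AVS low. For trpv4 the log2 fold change was 0.48 (95% interval −0.24 to 1.2) and for trpv6 −0.14 (95% interval −1 to 0.73). These intervals are wide, so the genes are not shown to be alike in the 2 groups. The lysosomal channel mcoln1a at −0.59 (SE 0.28) and trpm7, a magnesium channel, at 0.39 (SE 0.19) had the smallest p of the list.

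Among the genes of smallest p on the lower side were the 2 titin genes, myhb and xirp2a, which act in the sarcomere or at its attachments. They were picked for their p, and the muscle lists as wholes, which do not hold xirp2a, are given after them. The titin genes ttn.1 (chromosome 9, 42732992 to 42873700) and ttn.2, its neighbour (42894845 to 43073960), encode the elastic filament that spans the sarcomere. The gene ttn.1 stood at 252, 427, 1107 and 474 CPM in AVS low against 2627, 1283 and 2220 CPM in Afid low, with 712 to 1544 CPM in the control. AVS low replicate 4 came close to the lowest Afid low library, and the other 3 were far below. The log2 fold change was −1.87 (SE 0.41), and −1.67 (SE 0.38) for ttn.2. The 2 genes are closely related neighbours, so reads may be split between them and they are not independent observations.

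The fast myosin heavy chain myhb (chromosome 6, 40745437 to 40756138) was at 55.9, 45.8, 59.8 and 87.6 CPM in AVS low against 184, 109 and 195 CPM in Afid low, with 49.2 to 103 CPM in the control. No AVS low library reached the lowest Afid low value, and AVS low and control overlapped. Its log2 fold change of −1.40 (SE 0.25) was called by DESeq2 (adjusted p = 0.0024), against an adjusted p of 0.640 in edgeR and 0.0399 to 0.934 in its alternatives and limma-voom. Xirp2a, an actin-binding protein of muscle attachment sites, stood at 45.4, 58.7, 81.1 and 73.3 CPM in AVS low against 154, 98.2 and 141 CPM in Afid low, with 75.8 to 96.8 CPM in the control. Here the 3 groups were ordered, with most AVS low libraries below the control and all Afid low libraries above it. The log2 fold change of xirp2a was −1.04 (SE 0.22; DESeq2, adjusted p = 0.0454; 0.0392 to 0.934 in the other alternatives).

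Further muscle genes, chosen for a small p or after their values were seen, are given by value. The cardiac and slow myosins myh7 and myh7l were at −0.82 (SE 0.23) and −0.91 (SE 0.22), both without overlap between groups, and the slow myosin smyhc1 was at −0.52 (SE 0.18). Triadin, trdn, of the calcium release complex was at −1.03 (SE 0.27) and obscurin-like obsl1b at −0.87 (SE 0.21). Myosin heavy chain genes of zebrafish are close copies of each other, so counts may be split between them.

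Of 48 tested fast muscle genes 20 were higher and 28 lower, with a median log2 fold change of −0.05 that turned to 0.04 without Afid low replicate 1 and was −0.13 without AVS low replicate 1. At an unadjusted p under 0.05 were 0 higher and 5 lower members, and without overlap 0 higher and 9 lower (all genes 2.95% and 4.56% by p, 3.86% and 3.67% by overlap). The heart list had 0 higher and 4 lower and the slow muscle list 0 higher and 3 lower at an unadjusted p under 0.05. In these 3 lists the members of small p were all on the lower side, while the fast and slow muscle medians had no stable sign. The abundant actin gene actc1b was at 0.19 and the myosin light chain gene mylz3 at 0.23. Fast muscle genes together took 9.59% ± 1.09 of reads in AVS low (SD, n = 4) and 10.4% ± 1.00 in Afid low (SD, n = 3), with 10.7% in the control. The heart list was lower in 15 of 23 members with a median of −0.16 (−0.06 without Afid low replicate 1), and the slow muscle list had 12 of 22 members higher with a median of 0.05 (−0.10 without AVS low replicate 1). In whole larvae, fewer muscle cells and less RNA per cell cannot be told apart.

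Several photoreceptor genes of the light response were lower in AVS low, while estimates for the opsins rho and opn1mw2 were above 0. Cnga3b (chromosome 1, 10771457 to 10776547), a subunit of the cone channel that closes in light, stood at 11, 8.06, 13.0 and 12.1 CPM in AVS low against 21.7, 20.4 and 23.6 CPM in Afid low, with 12.9 to 17.8 CPM in the control. All AVS low libraries lay below all Afid low libraries, and the control overlapped AVS low. Its log2 fold change of −1.01 (SE 0.21) passed in DESeq2 (adjusted p = 0.0454), with 0.0402 to 0.934 in the other alternatives. The rhodopsin kinase gene grk1b was at 13.4, 11.6, 20.8 and 16.8 CPM in AVS low against 26.1, 25.5 and 27.2 CPM in Afid low, with 26.5 to 39.5 CPM in the control, a log2 fold change of −0.76 (SE 0.22). For grk1b, unlike cnga3b, Afid low and control overlapped, and AVS low was the group that stood apart.

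Guca1c, a calcium sensor that restores the dark state, followed grk1b, at 30.3, 21.1, 25.3 and 18.2 CPM in AVS low against 41.5, 36.2 and 36.3 CPM in Afid low, with 37.9 to 45.0 CPM in the control (log2 fold change −0.70, SE 0.19). Aipl1, a chaperone of the phosphodiesterase, had at most 1.25 CPM in AVS low and at least 2.68 CPM in Afid low, a log2 fold change of −1.76 (SE 0.40). Its control values of 1.06 to 4.33 CPM overlapped both groups. Rp1l1b, a protein of the photoreceptor axoneme, was at 2.14, 5.63, 6.86 and 6.12 CPM in AVS low against 28.6, 10.5 and 21.4 CPM in Afid low, a log2 fold change of −1.98 (SE 0.39; DESeq2, adjusted p = 0.00319; 0.0392 to 0.934 in the other alternatives). On the other side, rhodopsin, rho, was at 0.40 (SE 0.28) and the green cone opsin opn1mw2 at 0.53 (SE 0.24), both with overlapping groups. Rp1l1b and aipl1 are not in the photoreceptor list and were picked for their small p among all genes. At an unadjusted p under 0.05 in edgeR the list had 1 higher and 5 lower members (all genes 2.95% and 4.56%). Without overlap it had 0 higher and 4 lower (all genes 3.86% and 3.67%). Over its 56 tested members 33 were lower and 23 higher, with a median of −0.12. It was −0.27 without AVS low replicate 1 but −0.0082 without AVS low replicate 2, so its size depends on single libraries.

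Lens genes, the other eye list, were lower in 34 of 49 members with a median of −0.17, which was 0.08 without Afid low replicate 1, so its sign depends on that library. Neuronal genes were lower in 58 of 83 members, with a median of −0.13, which was −0.05 without AVS low replicate 2 and −0.24 without AVS low replicate 4. At an unadjusted p under 0.05 in edgeR were 2 higher and 5 lower neuronal members (all genes 2.95% and 4.56%). In a list of 83 these counts are not far from those shares. Without overlap, the balance was the other way, with 4 higher and 1 lower (all genes 3.86% and 3.67%). Named members were the microtubule proteins map1aa at −0.82 (SE 0.35) and stmn1b at −0.74 (SE 0.31), the acetylcholine-making enzyme chata at −0.64 (SE 0.28) and the glutamate receptor gria3a at −0.46 (SE 0.18). In contrast the dopamine transporter slc6a3 and the growth-cone protein stmn2b were higher, at 0.53 (SE 0.24) and 0.48 (SE 0.21). The neuron list score was −0.15, −0.25, 0.13 and −0.03 in AVS low against −0.05, 0.14 and 0.04 in Afid low, with −0.01 to 0.37 in the control, and the groups overlap.

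Collagen genes were the list with the most members at an unadjusted p under 0.05, 10 higher and 0 lower of 50 (all genes 2.95% and 4.56%). In all 44 of 50 members were higher in AVS low, with a median log2 fold change of 0.38. Col17a1a, the collagen that anchors the basal layer of the skin, stood at 135, 159, 117 and 178 CPM in AVS low against 94.5, 89.3 and 79.1 CPM in Afid low, with 86.0 to 111 CPM in the control. All AVS low libraries lay above both other groups, with a log2 fold change of 0.73 (SE 0.18). The bone and skin collagen col1a1a was at 0.76 (SE 0.28), col1a2 at 0.49 (SE 0.20), col14a1b at 0.66 (SE 0.20), col5a3b at 0.82 (SE 0.26) and the cartilage collagen col10a1a at 1.22 (SE 0.62).

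The collagen score was 0.28, 0.58, −0.18 and 0.48 in AVS low against −0.10, −0.09 and 0.13 in Afid low, with −0.48 to −0.04 in the control. Again AVS low replicate 4 was the lowest of its group and lay below all Afid low libraries, and the other 3 lay above them. The median was 0.54 without AVS low replicate 4 and 0.25 without AVS low replicate 2. Collagen genes took 0.468% ± 0.0866 of reads in AVS low (SD, n = 4) against 0.371% ± 0.0319 in Afid low (SD, n = 3). Related lists had smaller medians, 0.15 for cartilage and bone (28 of 36 higher, 0.09 without Afid low replicate 2 and 0.29 without Afid low replicate 1) and 0.23 for skin keratins and junctions (21 of 31 higher, 0.11 without AVS low replicate 1). The cartilage and bone member of smallest p, COMP, was lower in AVS low, at −0.64 (SE 0.25). At an unadjusted p under 0.05 in edgeR that list had 2 higher and 1 lower members (all genes 2.95% and 4.56%). The skin list holds the tight junction genes cldn1 at 0.83 (SE 0.32) and cldnb at 0.74 (SE 0.27). Elf3, an epithelial transcription factor outside the skin list, was picked for its small p. It was at 47.1, 53.6, 25.7 and 28.1 CPM in AVS low against 23.0, 14.2 and 17.1 CPM in Afid low. Its log2 fold change was 1.08 (SE 0.28).

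**Figure D3:**
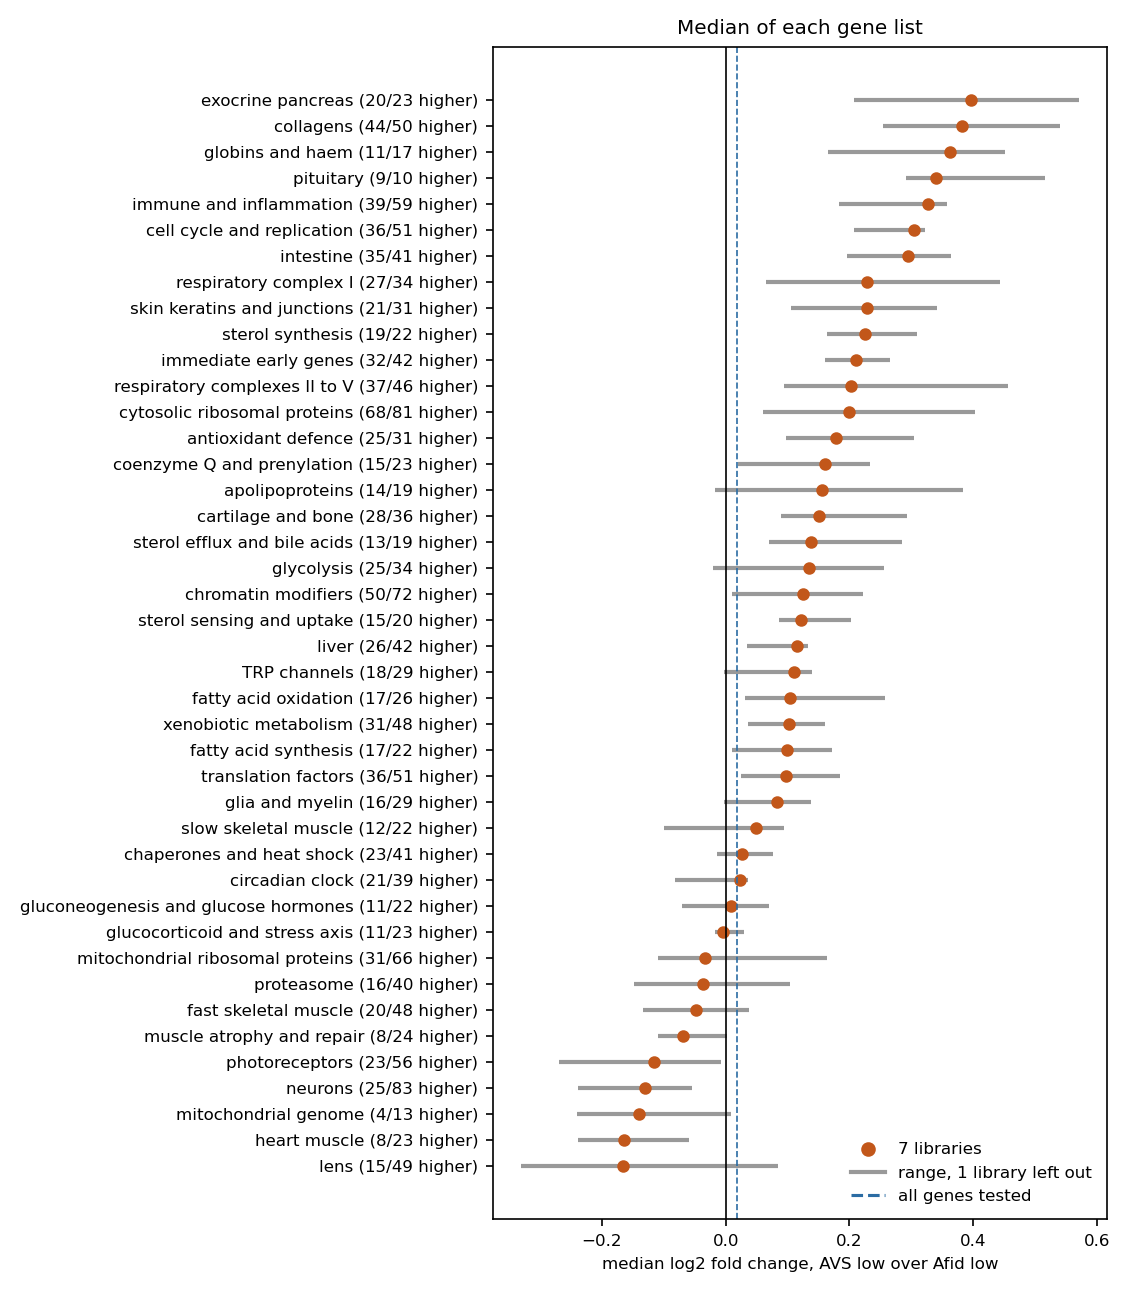
Median log2 fold change of AVS low over Afid low (x axis) for 42 gene lists (y axis, with the members higher of those tested). Dots use all 7 libraries, grey bars span the medians with any 1 library left out, and the dashed line marks all genes tested at 0.02. The exocrine pancreas and collagen lists lie highest, at 0.40 and 0.38, and the lens and heart lists lowest, at −0.17 and −0.16.

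Immune genes were higher in AVS low in 39 of 59 members, with a median of 0.33, with 5 higher and 0 lower at an unadjusted p under 0.05 (all genes 2.95% and 4.56%). The median was 0.18 without AVS low replicate 2, and the list scores, 0.06 to 0.32 in AVS low and −0.10 to 0.18 in Afid low, overlap. Irf1b, an interferon response factor (chromosome 21, 45626136 to 45633317), stood at 24.9, 18.0, 13.6 and 15.3 CPM in AVS low against 5.90, 10.1 and 9.33 CPM in Afid low, with 3.67 to 12.9 CPM in the control. Every AVS low library lay above the other 2 groups, and the log2 fold change was 1.07 (SE 0.27). Lcp1, an actin-bundling protein of leukocytes, is not in the immune list and was picked for its small p. It was at 28.0, 36.6, 15 and 23.4 CPM in AVS low against 9.80, 13.3 and 14.2 CPM in Afid low. Its control libraries ran from 6.36 to 15.8 CPM. The log2 fold change was 1.03 (SE 0.27), and AVS low replicate 4 lay just above the Afid low libraries and inside the control range. The leukocyte integrin itgam had 31, 55, 15 and 10 reads in AVS low, and 9 reads in 1 of the 3 Afid low libraries with 0 in the other 2, too few for a stable ratio (log2 fold change 2.97, SE 0.92).

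Macrophage mpeg1.2 was at 0.65 and the interferon signalling factors stat1a, stat1b and stat2 were at −0.57, −0.57 and −0.63, so the list did not move as one. Wdfy4, known from antigen-presenting cells of mammals, is also outside the list and was picked for its small p. It was at 17.8, 20.8, 15.4 and 18.2 CPM in AVS low against 9.89, 11.8 and 9.89 CPM in Afid low. The log2 fold change of wdfy4 was 0.76 (SE 0.20). Its groups did not overlap, but the control at 6.49 to 17.1 CPM overlapped both.

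Cell cycle and replication was the only one of the 42 lists whose scores did not overlap between the groups. For any 1 list such a separation has p = 0.0571 (exact two-sided permutation test), so 1 among 42 carries little weight. Of its 51 tested members 6 were higher and 1 lower without overlap (all genes 3.86% and 3.67%). The scores were 0.37, 0.07, 0.02 and 0.15 in AVS low against −0.13, −0.13 and −0.19 in Afid low, with −0.29 to 0.21 in the control, which overlaps both. The median was 0.30 (36 of 51 members higher) and stayed between 0.21 and 0.32 with any 1 library left out. Mcm2, part of the replicative helicase, was at 29.4, 20.6, 15.2 and 17.5 CPM in AVS low against 14.2, 11.4 and 11.2 CPM in Afid low, a log2 fold change of 0.74 (SE 0.24). The mitotic kinase aurkb was at 1.03 (SE 0.36), the cyclin ccnb1 at 0.85 (SE 0.34) and the nucleotide reductase rrm1 at 0.51 (SE 0.20), each without overlap. Against this direction mcm10, a replication initiation factor, averaged 0.340 CPM in AVS low and 1.03 CPM in Afid low, a log2 fold change of −1.61 (SE 0.59).

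Digestive genes were higher in AVS low in 35 of 41 intestine members, with a median of 0.29 (0.20 without AVS low replicate 2), and in 20 of 23 exocrine pancreas members, with a median of 0.40. The pancreas median was 0.21 without AVS low replicate 5, 0.25 without Afid low replicate 2 and 0.17 with a replicate block. The intestinal phosphatase alpi.1 was at 0.63 (SE 0.28), the gut hormone pyyb at 0.72 (SE 0.28) and cdx1a, a gut identity factor, at 0.40. The intestine member of smallest p, mep1a.2, went the other way, at −0.52 (SE 0.18) without overlap. At an unadjusted p under 0.05 in edgeR were 5 higher and 1 lower intestine members (all genes 2.95% and 4.56%). The pancreas score was 0.40, 0.40, −0.52 and 0.62 in AVS low against 0.32, −0.50 and −0.05 in Afid low, with −2.05 to 0.59 in the control. The spread within each group was thus wider than the distance between them. The protease genes prss60.2 and prss60.3, close copies of each other with at most 4.06 CPM in any of the 7 libraries, were at 1.15 (SE 0.45) and 1.52 (SE 0.65).

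Immediate early genes, which respond to stimuli within minutes, were higher in 32 of 42 members, with a median of 0.21. Klf11b, klf2b, zfp36l1a, jun and egr1 were at 0.87 (SE 0.27), 0.69 (SE 0.24), 0.59 (SE 0.22), 0.46 (SE 0.17) and 0.44 (SE 0.20). Without overlap between the groups were 5 higher and 0 lower members (all genes 3.86% and 3.67%), among them klf11b, zfp36l1a and jun. The median was 0.16 to 0.27 with any 1 library left out. The list scores overlap, at 0.28, −0.09, −0.04 and 0.08 in AVS low against −0.07, −0.17 and −0.10 in Afid low.

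Genes of cytosolic ribosomes and of the respiratory chain encoded in the nucleus were higher in AVS low in most members, by amounts that depended on single libraries, while those of mitochondrial ribosomes were not (31 of 66 higher, median −0.03). Of 81 cytosolic ribosomal protein genes 68 were higher with a median of 0.20, which was 0.07 without AVS low replicate 1, 0.06 without Afid low replicate 4 and 0.40 without Afid low replicate 1, and 0.39 with a replicate block. They took 7.99% ± 1.5 of reads in AVS low (SD, n = 4) and 7.46% ± 1.29 in Afid low (SD, n = 3), with 9.78% ± 2.05 in the control (SD, n = 4; exact two-sided permutation test between AVS low and Afid low, p = 0.686). The score ran from −0.77 in AVS low replicate 5 to 0.23 in AVS low replicate 1, wider than the range of −0.61 to 0.07 in Afid low. Complex I had 27 of 34 members higher with a median of 0.23, and 0.07 without AVS low replicate 1 or 0.44 without Afid low replicate 1.

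Within these lists NDUFA13, a subunit of complex I on an unplaced scaffold, stood out at 24.7, 19.1, 8.50 and 8.24 CPM in AVS low against 7.23, 5.99 and 5.37 CPM in Afid low, with 13.2 to 25.6 CPM in the control. The groups did not overlap, at a log2 fold change of 1.28 (SE 0.37), and AVS low replicates 1 and 2 lay in the range of the control while the other AVS low and all Afid low libraries lay below it. For rps29 the values were 303, 332, 212 and 147 CPM in AVS low against 215, 127 and 106 CPM in Afid low, with 263 to 599 CPM in the control, a log2 fold change of 0.72 (SE 0.30). Of the mitochondrial genome 9 of 13 genes were lower, with a median of −0.14 that was 0.0085 without Afid low replicate 1, so its sign depends on that library. These genes took 3.71% ± 0.519 of reads in AVS low (SD, n = 4) against 4.1% ± 0.426 in Afid low (SD, n = 3; exact two-sided permutation test, p = 0.286).

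**Figure D4:**
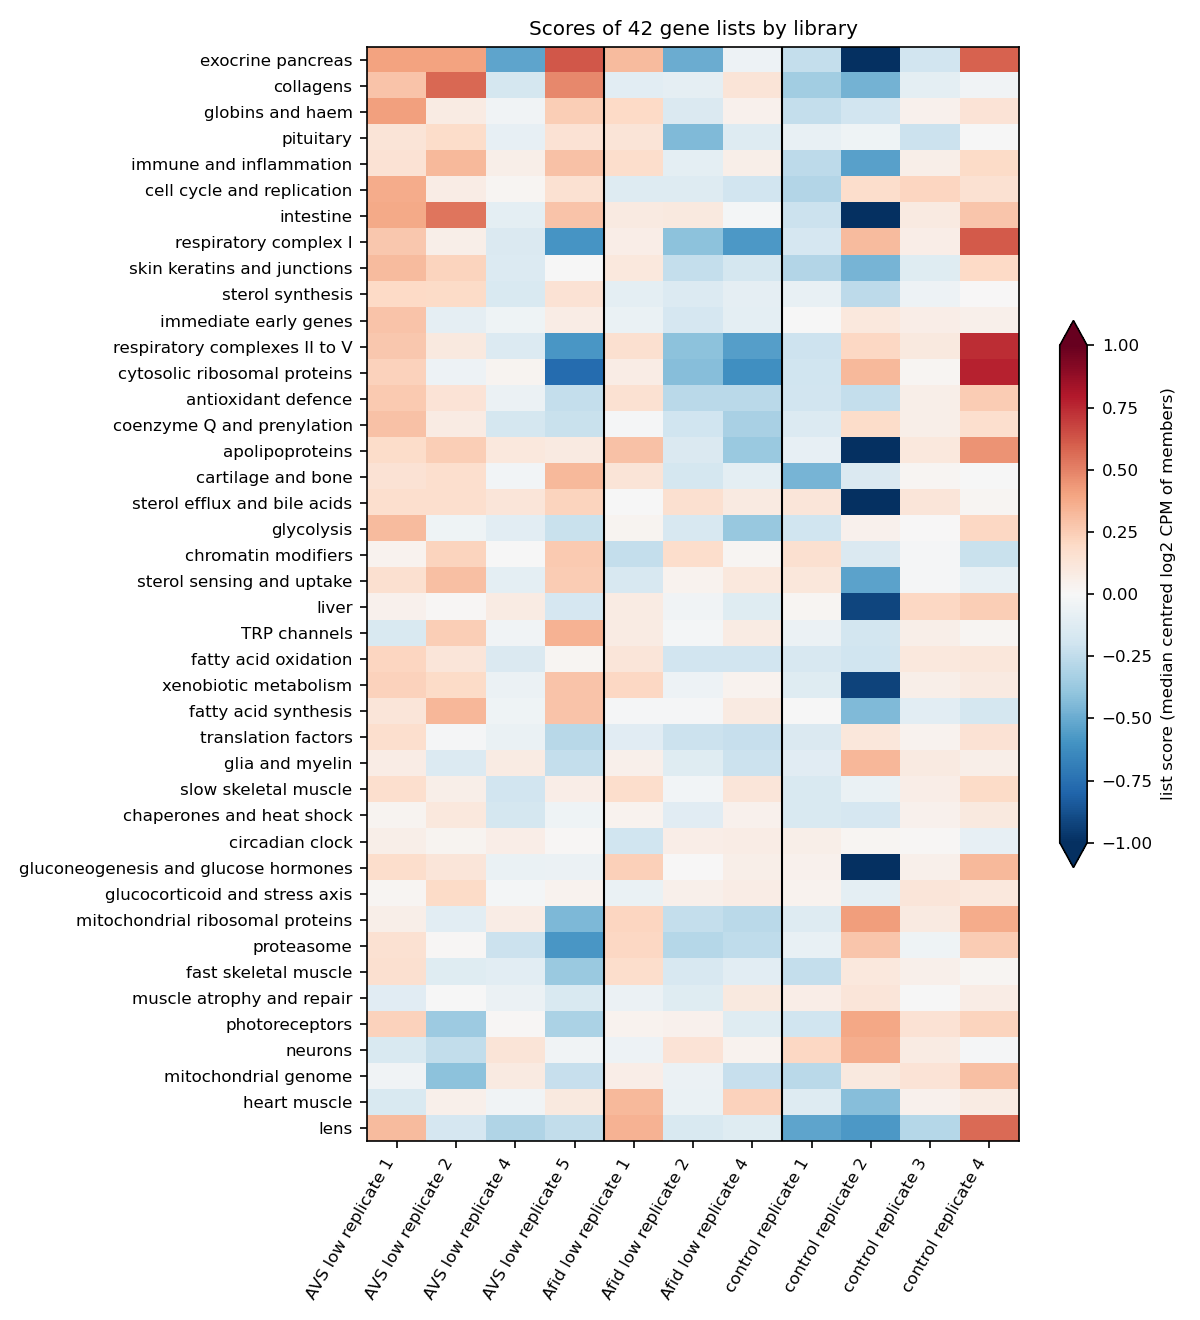
Scores of 42 gene lists (rows, ordered by their median log2 fold change) in the libraries of AVS low, Afid low and control (columns, split by black lines). Colour is the median over members of log2 CPM centred on the mean over 15 libraries, red above and blue below 0, with values beyond 1 shown at the end of the scale. Digestive lists are lowest in control replicate 2 (exocrine pancreas −2.05), and AVS low replicate 4 is paler or bluer than the other AVS low libraries for collagens, at −0.18, and for the pancreas, at −0.52.

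Among further single genes outside the lists was tmeff2b, a transmembrane protein with follistatin-like domains. It was at 11.2, 6.50, 11.8 and 5.67 CPM in AVS low against 2.95, 2.84 and 0.919 CPM in Afid low. Its log2 fold change was 1.97 (SE 0.42), with an adjusted p of 0.011 in DESeq2 and of 0.0773 to 0.934 in the other alternatives. Its control libraries ran from 1.79 to 15.6 CPM, overlapping both groups. Metap1, which trims the first methionine of new proteins, was at 23.0, 26.0, 55.6 and 33.2 CPM in AVS low against 16.4, 9.21 and 15 CPM in Afid low, a log2 fold change of 1.33 (SE 0.31). Bmp2a, a growth factor of bone and skin, was at 1.04 (SE 0.27) and aebp2, a partner of the Polycomb complex PRC2, at 0.79 (SE 0.21), both without overlap.

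On the lower side, prx, the gene named for periaxin, was at 38.6, 68.1, 91.5 and 92.9 CPM in AVS low against 223, 135 and 189 CPM in Afid low, with 76.8 to 128 CPM in the control. Its log2 fold change was −1.34 (SE 0.28; DESeq2, adjusted p = 0.011; 0.0392 to 0.934 in the other alternatives). Slc8a2a, a sodium-calcium exchanger, had 6, 10, 4 and 1 reads in AVS low against 16, 20 and 52 reads in Afid low, a log2 fold change of −2.58 (SE 0.59). With 0 to 0.612 CPM in the control, the Afid low libraries stood above both AVS low and control. They were not alone in this. The AVS high libraries, at 0.945, 0.999, 1.94 and 0.981 CPM, also lay above all control libraries. Lrrfip1a was at −1.05 (SE 0.23) without overlap.

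Leaving out AVS low replicate 4 changed the count of calls more than any other alternative that was run. Without it edgeR called 155 of 19004 genes, 11 higher (0.0579%) and 144 lower (0.758%) in the 3 remaining AVS low libraries than in Afid low. Called in that fit were among others ttn.1 and ttn.2 (log2 fold changes −2.45 and −2.19), myh7 (−1.06), cep290, a protein of the photoreceptor cilium (−1.12), chgb, a secretory granule protein (−1.44), and, on the higher side, fads2 (1.01), lcp1 (1.2) and nid2a, a basement membrane protein (1.00). The adjusted p of these 8 genes in that edgeR fit ran from 0.0155 to 0.0465 and was 0.640 with all 7 libraries. Over all alternatives other than DESeq2 it ran from 0.0155 to 0.934. For chgb the values were 11.3, 11.7, 28.7 and 13.1 CPM in AVS low replicates 1, 2, 4 and 5 against 34.3, 27.8 and 33.2 CPM in Afid low.

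In 136 of the 144 lower genes AVS low replicate 4 lay nearer to the mean of Afid low than to that of the other 3 AVS low libraries, and in 141 it was the highest of its group. These genes reach the edgeR threshold only without that library, so both counts are largely set by the selection. Over the 144 genes the score was −0.99, −0.78, 0.49 and −0.44 in AVS low replicates 1, 2, 4 and 5, against 0.69, 0.44 and 0.71 in Afid low, values that the selection itself shaped. In libraries that the selection did not use, the score was 0.57, −0.78, −0.29 and −0.77 in the AVS high libraries, and 0.13 to 0.69 in the 4 control libraries. The 144 genes had a median length of 3674.5 bases, against 2468 bases over all genes tested. With all 7 libraries the median log2 fold change was −0.03 in tested genes of 15 to 1434 bases. It was 0.02 in those of 4605 to 98586 bases. Whether length bears on the 144 calls was not tested. Of the 144 genes 10 are in any of the 42 lists. Those lists hold 1663 symbols, some in more than 1 list, among the 25109 genes of both tables. The count of 10 is near that share and is no result about the lists. Why AVS low replicate 4 lies apart from its group was not tested.

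**Figure D5:**
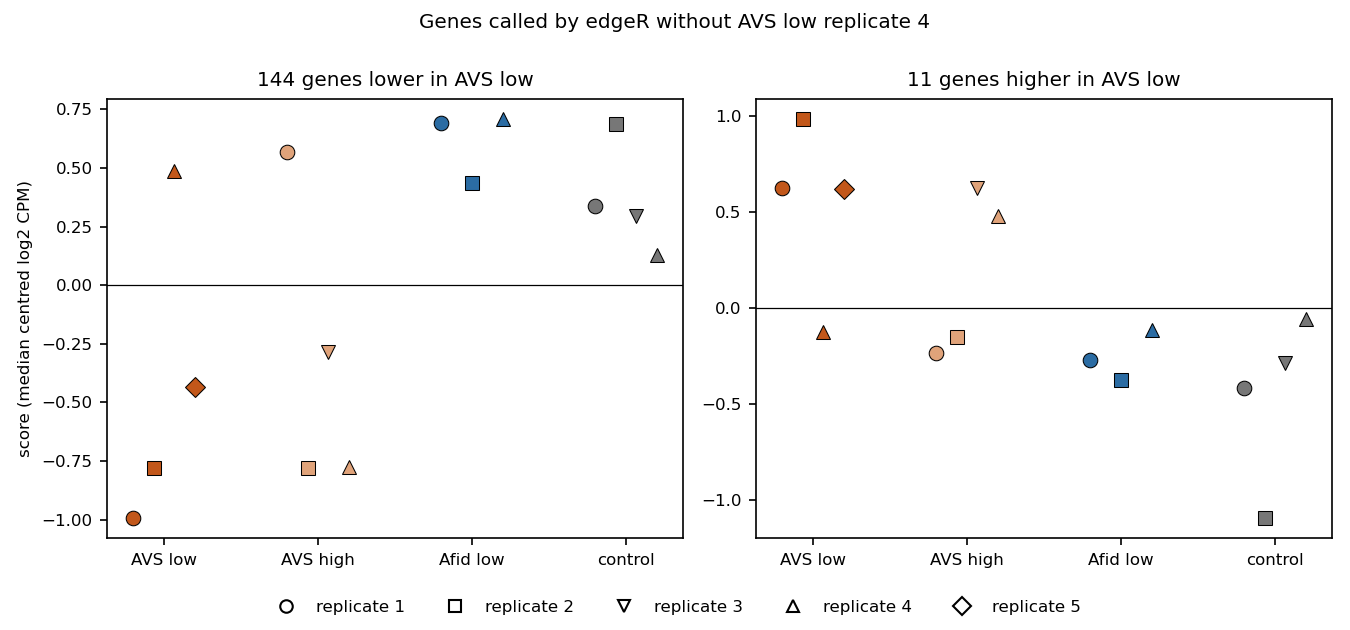
Score (median log2 CPM centred on the mean over 15 libraries, y axis) of the 144 lower and 11 higher genes called by edgeR when AVS low replicate 4 is left out, in each library of 4 groups (x axis). Marker shapes give the replicate number. In the left panel AVS low replicate 4 lies at 0.49, between the Afid low libraries at 0.44 to 0.71, while the other AVS low libraries lie at −0.44 or lower.

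The genes that the authors called against the control can be placed in the direct comparison. The same exposed libraries enter both, so the direction and the p of these genes are partly fixed by the selection. Called by the authors means an adjusted p under 0.05 in the DESeq2 results they deposited, a cut that was set here. With it the authors' deposited table called 43 genes for the AVS exposure (0.168%) and 15 for the Afid exposure (0.0584%). Of the 37 genes with increased levels under AVS by the authors' deposited table, 36 were tested directly and 36 were higher than in Afid low. Their median was 0.76 here, and 19 had an unadjusted p under 0.05 in edgeR (all genes 2.95% higher), a count that the selection raises. Of the 6 genes decreased under AVS by the authors' deposited table, 5 were tested and 5 were lower. Of the 7 genes increased under Afid by the authors' deposited table, 6 were lower in AVS low than in Afid low, with a median of −1.08, and of the 8 decreased ones 7 were higher in AVS low, with a median of 0.60.

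The authors' deposited table called 2 genes for both compounds in the same direction, the lipid flippase gene atp8b1 (log2 fold changes 1.66 in AVS low and 1.21 in Afid low) and si:dkey-239h2.3 (−1.14 and −1.08). In the direct comparison atp8b1 stood at 8.23, 28.2, 9.81 and 29.6 CPM in AVS low against 14.3, 13.7 and 14.0 CPM in Afid low, with 4 to 7.90 CPM in the control. AVS low replicates 2 and 5 lay above and replicates 1 and 4 below the Afid low libraries, so the log2 fold change of 0.42 (SE 0.39) was within the spread. All 7 exposed libraries lay above all 4 control libraries, which both calls share. The slow myosin smyhc2 and the transporter abcc13, called in Afid low in the authors' deposited table, stood in the direct comparison at −0.61 (SE 0.38) and −1.08 (SE 0.51), with overlapping groups in both.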

How the data were processed

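RNA of whole zebrafish larvae was extracted with TRIzol, poly(A)-selected and sequenced as directional libraries on a NovaSeq, per the labels' protocols. The authors trimmed reads with fastp, aligned them with HISAT2 and made the read counts per gene with featureCounts, per the submitters' processing notes; no version, strand setting or genome build was given in the sources used here. The log2 fold changes and p-values of each exposure against the control are the authors' own, made with DESeq2 per the submitters' processing notes, and gene length is used as deposited per the file headers.

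From the deposited counts, the AVS low table (25642 genes) and the Afid low table (25686) were joined by gene ID, giving 25109 genes. A gene in 1 table only had at most 22 reads in the exposed libraries. The control counts were identical in both tables, and 52 columns of normalized values were not used. The main test was edgeR's quasi-likelihood test (edgeR 4.0.16, R 4.3.3) on the 7 libraries, with TMM scaling, filterByExpr and Benjamini-Hochberg adjustment at 0.05. The printed CPM use TMM factors of the 15 libraries with counts, and list scores use log2 CPM with a prior count of 2. Each log2 fold change is AVS low over Afid low, and its SE is its size over the square root of the F statistic. The procedure was tested on simulated data.

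DESeq2 1.42.0, limma 3.58.1 (voom), RLE scaling, no filter on low counts, 1 fit of 15 libraries, library sizes without ribosomal and mitochondrial genes, genes of either table, the replicate number as a block, removal of a length trend from the list medians (lowess fraction 0.3) and leaving out each library were tried as alternatives. The 7 libraries held 9.91 to 16.9 M reads, and genes with few reads have wide intervals. No 2 libraries were alike within sampling noise (chi-square per degree of freedom at least 7.76).

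The comparison, the 42 gene lists and the tests were chosen with earlier results of these data known. Picked for naming were, for either direction, the 10 genes of lowest p that passed 3 conditions. They carry a standard symbol, do not overlap and average 20 reads or more in 1 group. Also picked were the 2 lowest in each list, a panel of sterol and TRPV genes, and genes called by the authors. Not every gene picked from a list or called by the authors is described, so the list members shown are a further selection. All other genes named, among them trdn, obsl1b, cep290, chgb, golga7ba, col1a2, col5a3b, lss, fdft1, dhcr7, hmgcrb, zgc:158432, CU570894.1, smyhc2, abcc13, atp8b1 and further list members, were chosen after their values were seen. Symbols held by several gene IDs or by close copies may share reads. The result of 1 gene of the panel is not reported here, though it remains in the counts and median of its list.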

Additional observations from a re-analysis of the deposited data

Results flagged for a closer look

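Among 190 groups of 4 library values looked at, 7 had 1 library far from the other 3; chance alone marks about 1 in 20 groups, so a pattern among these carries little weight. AVS low replicate 1 had 21977 genes with a read, the lowest of its group, although it was among the deepest libraries.

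AVS low replicate 4 was the library in 5 of the 7. Among these, chgb and golga7ba were added to the named genes after their values were seen. Their flags are thus partly set by that choice, and the count of 5 is no independent sign that this library differs. Its sterol synthesis score was −0.15, against 0.14 to 0.20 in the other 3 AVS low libraries. Its CPM was 28.7 for chgb, against 11.3 to 13.1 in the others, and 63.3 for golga7ba, against 11.6 to 17.6. It was 36.2 for the tight junction gene cldnb, against 69.1 to 72.5, and 21.8 for sox10, a factor of neural crest and glia, against 30.8 to 31.6. AVS low replicate 2 had 46.6 CPM of zgc:153932, against 22.4 to 26.1 in the other 3.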

How the results depend on the processing

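The count of genes called was 0 in edgeR with all 7 libraries, 9 with DESeq2, and 0 to 155 with 1 library left out, where only the fits without AVS low replicate 2 (1 gene, zgc:158432) and without AVS low replicate 4 (155) gave calls. The count at an unadjusted p under 0.05 was 1443, and 636 (without AVS low replicate 2) to 3268 (without AVS low replicate 4) with 1 library left out. The count of genes with no overlap between groups, AVS low against Afid low, was 1446, and 1752 to 4574 with 1 library left out, where fewer libraries make overlap rarer by construction. The number of lists with a median above 0 (32 of 42) stayed within 1.5 times, and the ribosomal share within its spread, in every alternative run for them. With 42 lists the upper limit of that range cannot be passed, so the count says little about stability. Medians of single lists, such as lens and fast muscle, changed sign with 1 library left out. For single named genes, 22 values with 1 library left out and 9 under other alternatives newly passed the threshold.

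Same-numbered replicates did not deviate together (r 0.005, −0.042 and −0.02). So few pairs from such small groups cannot show whether libraries of the same number share a clutch, tank or batch. With a replicate block edgeR called 0 genes (smallest adjusted p 0.0608), and 1608 genes had an unadjusted p under 0.05, 455 higher and 1153 lower. Under the replicate block atp8b1 (−0.10) and trpv1 (−0.039) changed sign. With 1 library left out trpv1 ran from −0.0026 (without AVS low replicate 5) to 0.37 and trpv6 from −0.41 to 0.24, so both have no stable direction. The cause was not tested. Depth limits genes with few reads, such as hmgcra, itgam and slc8a2a, and 4 against 3 libraries limit every test.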

Other observations

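Hormone and blood genes of the larvae are described here by value. Of 10 pituitary genes tested, 9 were higher in AVS low than in Afid low, with a median log2 fold change of 0.34 (0.52 without Afid low replicate 1). Growth hormone, gh1, averaged 21.7 CPM in AVS low and 11.2 CPM in Afid low, with 5.55 CPM in the control, but its log2 fold change of 0.94 had an SE of 0.65. The prohormone convertase pcsk2, which cuts hormone precursors, averaged 52.2 CPM in AVS low and 41.4 CPM in Afid low, without overlap, a log2 fold change of 0.32 (SE 0.17). Of 17 globin and haem genes 11 were higher, with a median of 0.36, which was 0.17 without Afid low replicate 2. The embryonic globins hbae3 and hbbe1.1 were at 0.48 (SE 0.22) and 0.41 (SE 0.22), while epb41b, a protein of the red cell skeleton, was at −1.37 (SE 0.38).

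Chromatin modifiers were higher in AVS low in 50 of 72 members, with a median of 0.13, which was 0.01 without Afid low replicate 1 and 0.22 without Afid low replicate 2. At an unadjusted p under 0.05 in edgeR were 4 higher and 0 lower members (all genes 2.95% and 4.56%). In a list of 72, 4 in all is not far from the 7.51% of all genes and is no result about the list. The 4 were the acetyltransferase crebbpb at 0.57 (SE 0.22), the demethylase kdm5ba at 0.43 (SE 0.18), and the remodellers chd8 at 0.42 (SE 0.19) and chd4a at 0.39 (SE 0.17). None passed the adjusted threshold of edgeR.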
